A study of Arabidopsis thaliana with 12 samples.

Results

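The probe sets described here stood strongly higher under nitrate in roots of both genotypes of the study. A probe set is a group of array probes that reads 1 transcript or a few similar ones. It was taken as a member where the mean of 3 KNO3 samples exceeded the mean of 3 KCl samples by 2 up to, but not including, 4 on the log2 scale, in Col-0 and also in tga1_tga4. That window corresponds to a 4-fold to 16-fold difference. Of 22746 probe sets other than array controls, 127 met it, 5 of those are left out by identifier under the rule, and the other 122 (0.536%) are the members. The members were thus chosen by their nitrate changes in these 12 samples. Those changes are given below as a description, and only the comparison that the choice did not use is tested.

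The study measured 12 arrays, 3 in each of 4 groups, from whole roots of Arabidopsis thaliana seedlings that were 15 days old. Plants were either Col-0, the wild type, or tga1/tga4, a double mutant in the bZIP factor genes TGA1 and TGA4. Both genotypes received either 5 mM KNO3 or the control salt, 5 mM KCl, for 2 h from the start of the light period. All had been kept for 14 days on hydroponic medium with MS salts lacking nitrogen, 0.5 mM ammonium succinate and 3 mM sucrose, with 16 h light and 8 h dark at 22 °C. The labels give no allele names for the mutant. They also do not say how the 3 biological replicates of a group were kept apart, so the p-values cover only the spread found among these samples, part of which may be technical. Levels of the mutated genes themselves were not analysed here. Because whole roots were used, a higher level per cell and a larger share of cells with the transcript cannot be told apart.

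Nitrate is both a nutrient and a signal for plant roots. Cells that take it up reduce it to nitrite and then to ammonium, which draws on reductant and carbon skeletons from sugar metabolism, and a set of genes switches on within minutes to hours of its supply. NLP transcription factors carry much of this early response, and TGA1 and TGA4 are also known as regulators of nitrate responses in Arabidopsis roots.

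Sample medians over all probe sets lay between 2.21 and 2.41 (log2). The tissue label could be checked only weakly, because 2 of 14 listed root markers and 1 of 21 listed leaf photosynthesis markers had a probe set with a gene name. In Col-0 the root hair expansin EXPA7 read 2.63 to 2.77 under KCl and 4.21 to 4.58 under KNO3. In the mutant EXPA7 read 2.92 to 4.47 and 4.17 to 4.58. EXPA18, also a root hair expansin, read 2.74 to 3.12 under KCl and 4.98 to 5.28 under KNO3 in Col-0. Its mutant samples read 3.09 to 4.72 and 4.62 to 5.19. The leaf gene RCA, for Rubisco activase, read 4.0 to 4.8 under KCl and 3.7 to 4.0 under KNO3 in Col-0, and 3.9 to 4.6 and 3.7 to 4.1 in the mutant. None of these 3 markers was at 0, and the part of either list in the results below was not tested. Both KNO3 samples numbered 3 were the highest of their group in more probe sets than the other KNO3 samples, 39.6% in Col-0 and 40.1% in the mutant. The main results are therefore also given without the 4 samples of that number. Col-0 KCl number 3 did not stand apart in this way, at 30.9%. Mutant KCl number 3 was the highest of its group in 37.9% of all probe sets and the lowest in 37.8%. Among the members it was the lowest in 50.8%.

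In Col-0 the members' change ran from 2.02 to 3.98 with a median of 2.51, and in the mutant from 2.05 to 3.92 with a median of 2.6 (log2 difference, KNO3 minus KCl). Over all probe sets the medians were -0.01 and -0.01. Of the 122 members, 120 were called higher in Col-0, against 3.32% of all probe sets, and 121 in the mutant, against 3.17% (limma, adjusted p under 0.05). All 3 KNO3 samples lay above all 3 KCl samples in 122 members in Col-0 and in 122 in the mutant, a pattern that 9.62% and 9.86% of all probe sets showed. The window fixed these counts in large part, and nothing is read from them. The gap between the lowest KNO3 and the highest KCl sample had a median of 2.04 in Col-0 and 2.0 in the mutant, and its smallest values were 0.66 and 0.09, both in 248844_s_at.

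**Figure D1:**
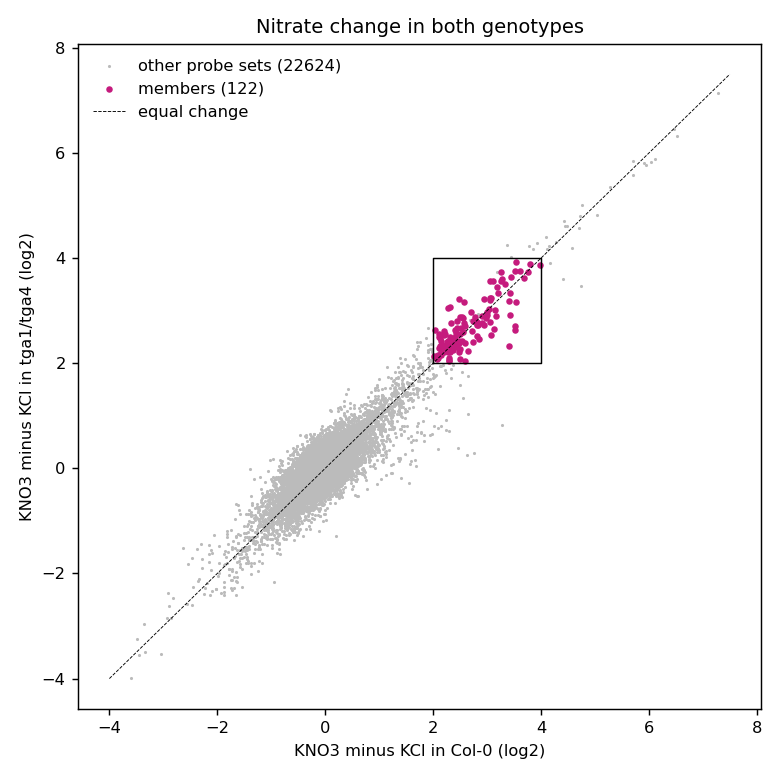
Log2 difference between KNO3 and KCl means (n = 3 each) in Col-0, on the x axis, and in tga1/tga4, on the y axis, for 22746 probe sets. The 122 members lie within the square from 2 to 4 on both axes, on both sides of the dashed line of equal change.

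The edges of the window cut a continuous range of changes. Just inside the lower edge lay 258977_s_at, at 2.022 in Col-0 and 2.14 in the mutant. Just outside it lay AT3G16560, at 1.987 and 2.09, and HYH, a bZIP factor of light signalling, at 1.986 and 2.233. AT1G73600 was closest inside the upper edge, at 3.977 and 3.862, and 245117_at closest outside, at 3.436 and 4.025. A further 26 probe sets reached 4 in at least 1 genotype and 2 in both, and 62 reached 2 in 1 genotype only.

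A gene table named 1 gene for 57 members, which made 56 genes, 2 genes for 1 member and none for the other 64. Among all probe sets 59.4% had 1 gene name, and among the members 46.7%. The roles given below for 37 of the named members are background from general knowledge of these loci, and the families were formed after the values had been seen. The other members are given by locus or probe set identifier.

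The signal of a probe set depends on its probes as well as on its transcript, so signals of different probe sets do not compare amounts of RNA. Their range and order describe the arrays, and the array median is given to show which members lay at the dim end. Under KCl their group means ran from 0.45 to 8.53 in Col-0 and from 0.37 to 8.36 in the mutant, with medians of 3.37 and 3.37, against 2.38 and 2.32 over all probe sets. In 26 members all 6 KCl samples lay below the median of their array, in 73 all 6 lay at or above it, and in 23 the samples were mixed. No measure of background was used here, and the size of the change is least certain in members that lay low under KCl. Under KNO3 all 6 samples were above the array median in 121 of the 122 members, with group medians of 5.96 in Col-0 and 5.99 in the mutant.

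A first pair of examples comes from the ends of that range. Probe set 265649_at, with the highest signal of the members under KCl, read 8.50, 8.53 and 8.57 in the Col-0 KCl samples, 10.66, 10.80 and 10.80 under KNO3, 8.50, 8.33 and 8.25 in mutant KCl and 10.56, 10.60 and 10.88 in mutant KNO3. Its samples of the different salts did not overlap. At the low end, 264014_at stood at 0.38, 0.56 and 0.39 in Col-0 KCl and 2.93, 2.95 and 2.89 in Col-0 KNO3. In the mutant it stood at 0.54, 0.29 and 0.27 under KCl and 3.24, 3.01 and 2.11 under KNO3, and it was the only member with a KNO3 sample below its array median.

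**Figure D2:**
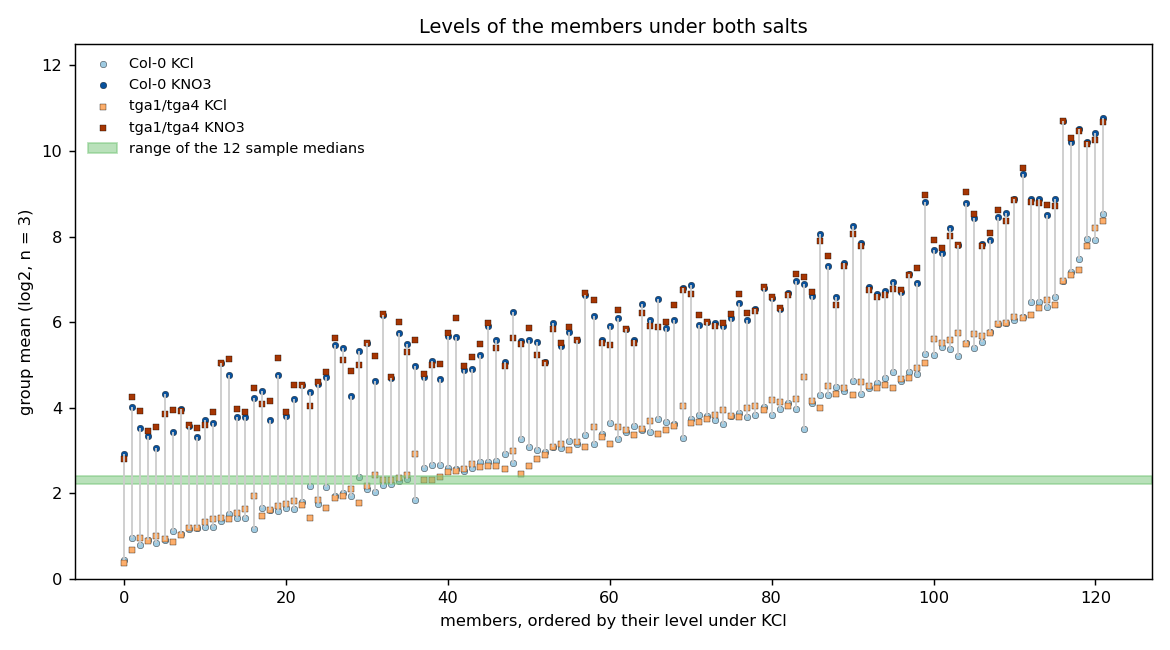
Group means (log2, n = 3) of the 122 members, ordered from left to right by their level under KCl. Light points are KCl and dark points KNO3, circles Col-0 and squares tga1/tga4, grey lines join the Col-0 means, and the green band is the range of the 12 sample medians from 2.21 to 2.41. KCl points run from 0.37 to 8.53, while the KNO3 points lie between 2.79 and 10.76.

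A pair of members are enzymes of phospholipid head groups, and the first of them had the largest mean change of the named members. AT1G73600, a phosphoethanolamine N-methyltransferase of the route to phosphocholine, read 1.96, 2.13 and 2.47 in Col-0 KCl, 5.42, 5.92 and 7.16 in Col-0 KNO3, 1.54, 2.59 and 2.84 in mutant KCl and 5.69, 5.57 and 7.30 in mutant KNO3. The KNO3 sample numbered 3 was the highest in each genotype. Its change was 3.98 ± 0.52 in Col-0 and 3.86 ± 0.52 in the mutant (log2 difference ± SE), or 15.7-fold and 14.5-fold. PMEAMT (AT1G48600), a methyltransferase of the same type, read 6.16, 5.78 and 6.19 in Col-0 KCl and 8.52, 9.08 and 9.01 in Col-0 KNO3. In the mutant it read 6.30, 6.08 and 6.01 under KCl and 8.74, 8.69 and 9.16 under KNO3. Its change was 2.82 ± 0.19 in Col-0 and 2.73 ± 0.19 in the mutant.

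The 4 members known as transcription factors had changes of 2.35 to 3.2 in Col-0 and 2.41 to 3.35 in the mutant. The window bounds both ranges, so nothing is read from their likeness. AT4G39780, of the AP2/ERF family, read 3.08, 2.60 and 2.47 in Col-0 KCl, 5.79, 5.53 and 6.43 in Col-0 KNO3, 2.85, 2.54 and 2.51 in mutant KCl and 5.65, 5.54 and 6.75 in mutant KNO3. AT5G52020, of the same family, read 2.00, 1.52 and 1.89 in Col-0 KCl, 5.00, 3.90 and 4.72 in Col-0 KNO3, 1.85, 1.94 and 1.41 in mutant KCl and 4.45, 4.14 and 5.03 in mutant KNO3. In both genes the samples were separated by salt and overlapped between genotypes, and the lowest KNO3 sample was numbered 2 in each genotype. AT5G58900, a MYB-related factor, went from 2.77, 2.36 and 2.65 to 5.66, 5.65 and 5.71 in Col-0 and from 2.17, 2.85 and 2.45 to 5.50, 5.44 and 6.27 in the mutant. The bZIP gene AT5G04840 went from 2.31, 2.69 and 2.54 to 4.94, 4.54 and 5.14 in Col-0 and from 2.47, 2.56 and 2.67 to 4.70, 4.82 and 5.43 in the mutant. bZIP is also the class of TGA1 and TGA4.

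Members of sugar metabolism changed by 2.29 to 2.9 in Col-0 and 2.1 to 2.76 in the mutant, over 3 genes. AT1G22170, of the phosphoglycerate mutase family that acts in glycolysis, read 2.93, 2.90 and 3.41 in Col-0 KCl, 5.58, 6.08 and 6.29 in Col-0 KNO3, 2.52, 3.38 and 3.33 in mutant KCl and 5.94, 5.62 and 5.94 in mutant KNO3. Its relative PGM (AT1G78050), which lay above the window and was looked up after the values had been seen, changed by 5.71 and 5.59. AT5G51830, of the fructokinase family, stood at 5.56, 5.48 and 5.55 in Col-0 KCl and 7.89, 7.69 and 7.89 in Col-0 KNO3. Its mutant samples stood at 6.09, 5.75 and 5.16 under KCl and 7.58, 7.71 and 8.01 under KNO3, so that mutant KCl spread more widely than Col-0 KCl. The third gene, AT5G66530 of the aldose epimerase family, changed by 2.29 in Col-0 and 2.41 in the mutant.

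Transporters and membrane pores formed a group of 4 members with changes of 2.44 to 3.43 in Col-0 and 2.39 to 3.34 in the mutant. AT5G52050, the MATE-type efflux carrier DTX50, read 2.36, 2.04 and 1.90 in Col-0 KCl, 5.60, 4.75 and 6.22 in Col-0 KNO3, 3.37, 1.80 and 1.34 in mutant KCl and 5.46, 5.19 and 5.86 in mutant KNO3. Mutant KCl number 1 stood well above the other KCl samples. AT1G61740, a membrane protein of the TauE/SafE family, read 5.52, 5.17 and 5.39 in Col-0 KCl and 7.87, 7.99 and 8.76 in Col-0 KNO3, and at 5.57, 5.66 and 5.48 and 8.13, 8.02 and 7.92 in the mutant, with the highest sample numbered 3 in Col-0 KNO3. The sugar transporter AT5G18840 and the mitochondrial porin family gene AT1G50400 changed by 2.44 and 2.49 in Col-0 and by 2.68 and 2.39 in the mutant.

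A group of 5 acyltransferases, P450 and hydrolase genes held some of the largest changes. BAT1 (AT4G31910), an acyltransferase linked to brassinosteroids, the plant steroid hormones, read 4.34, 4.59 and 4.96 in Col-0 KCl, 7.90, 7.88 and 8.97 in Col-0 KNO3, 3.97, 4.18 and 4.72 in mutant KCl and 7.56, 7.84 and 8.76 in mutant KNO3. Number 3 was the highest sample in all 4 groups. CYP78A9, a cytochrome P450 of a subfamily that promotes organ growth, was flat and low under KCl, at 1.38, 1.50 and 1.21 in Col-0 and 1.41, 1.46 and 1.41 in the mutant. Under KNO3 it spread over 5.11, 4.12 and 5.92 in Col-0 and 5.03, 4.12 and 5.99 in the mutant, with the same order of numbers in both genotypes. AT5G47980, another acyltransferase of the BAHD family, changed by 2.44 and 2.31, and the hydrolases AT5G06570 and AT1G73920 by 2.95 and 2.07 in Col-0 and by 2.73 and 2.08 in the mutant.

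The members known as cell wall and secreted proteins numbered 8, with changes of 2.15 to 3.79 in Col-0 and 2.06 to 3.9 in the mutant. AT4G36010, a thaumatin-like protein, read 4.63, 3.92 and 4.31 in Col-0 KCl, 8.13, 7.53 and 8.56 in Col-0 KNO3, 4.68, 4.16 and 3.16 in mutant KCl and 7.72, 7.56 and 8.40 in mutant KNO3. XTH20, which cuts and rejoins wall xyloglucan, went from 3.96, 4.70 and 4.72 to 6.37, 6.71 and 7.42 in Col-0 and from 3.63, 4.85 and 5.07 to 6.70, 6.11 and 7.47 in the mutant. Both genes were higher in every KNO3 sample than in any KCl sample. Of the 9 XTH genes with a named probe set, a family looked up after the values had been seen, 3 were called higher in each genotype and 6 were not called, with medians of 0.15 and 0.24.

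AT1G52050 and AT1G52060, jacalin-type lectins that bind sugars, lie next to each other in the TAIR10.1 gene order. AT1G52060 read 1.29, 2.25 and 2.00 in Col-0 KCl, 5.38, 4.32 and 5.25 in Col-0 KNO3, 1.78, 3.91 and 3.05 in mutant KCl and 5.67, 5.13 and 5.90 in mutant KNO3. AT1G52050 read 1.08, 1.31 and 1.1 in Col-0 KCl, 4.63, 3.42 and 4.64 in Col-0 KNO3, 1.22, 2.79 and 1.76 in mutant KCl and 4.51, 3.75 and 5.12 in mutant KNO3. In both genes mutant KCl number 2 was the highest KCl sample and the KNO3 samples numbered 2 were the lowest of their groups. The lectin gene AT1G52070, outside the window because its mutant change was 1.75, had a Col-0 change of 2.65. AT3G13560 and AT4G18340, of the beta-1,3-glucanase family that acts on callose, changed by 2.28 and 3.53 in Col-0 and by 3.04 and 3.16 in the mutant.

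Among signalling proteins, WNK7, a protein kinase without the usual lysine, read 1.40, 1.11 and 0.84 in Col-0 KCl, 3.66, 4.08 and 2.57 in Col-0 KNO3, 1.13, 0.62 and 0.86 in mutant KCl and 4.78, 4.04 and 3.02 in mutant KNO3. Unlike in BAT1, number 3 was its lowest KNO3 sample in both genotypes. The PP2C-type phosphatase gene AT5G26010 and AT5G09800, a U-box protein of the ubiquitin system, changed by 2.49 and 3.16 in Col-0 and by 2.28 and 2.9 in the mutant. AT3G52960, a plastid peroxiredoxin that removes peroxides, read 5.74, 6.15 and 6.04 in Col-0 KCl, 8.56, 8.34 and 8.79 in Col-0 KNO3, 5.79, 5.85 and 6.27 in mutant KCl and 8.18, 8.15 and 8.73 in mutant KNO3.

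With the peroxiredoxin, members of other known families numbered 6, with changes of 2.15 to 3.01 in Col-0 and 2.22 to 2.91 in the mutant. AT5G54170, which has a lipid-binding START domain, read 4.17, 3.79 and 3.93 in Col-0 KCl, 6.99, 7.46 and 6.46 in Col-0 KNO3, 4.16, 4.18 and 4.29 in mutant KCl and 7.47, 7.49 and 6.41 in mutant KNO3. Here the KNO3 sample numbered 3 was the lowest in each genotype. AT5G03380, with a heavy metal-associated domain, read 6.86, 6.14 and 6.07 in Col-0 KCl, 8.41, 8.45 and 8.67 in Col-0 KNO3, 6.31, 6.55 and 6.67 in mutant KCl and 8.73, 8.49 and 8.98 in mutant KNO3. The WD40 repeat gene AT1G49450, the RNA-binding protein gene AT1G14340 and the ankyrin repeat gene AT4G03500 changed by 2.91, 2.78 and 2.33 in Col-0 and by 2.9, 2.87 and 2.44 in the mutant.

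Some of the largest and smallest changes among named members lay in loci for which no role is given here. AT4G09620 read 2.48, 2.22 and 2.15 in Col-0 KCl, 5.85, 5.93 and 5.43 in Col-0 KNO3, 2.39, 2.41 and 2.25 in mutant KCl and 6.08, 6.25 and 5.67 in mutant KNO3. AT3G19030 read 5.73, 5.49 and 5.34 in Col-0 KCl, 9.0, 8.86 and 8.50 in Col-0 KNO3, 5.48, 5.60 and 5.38 in mutant KCl and 9.10, 9.06 and 8.99 in mutant KNO3. In both, the KNO3 sample numbered 3 was the lowest of its group and the KCl samples kept within a narrow range. AT3G46880 went the other way, with KNO3 number 3 the highest of its group, at 0.72, 1.12 and 1.04 against 3.88, 3.40 and 4.79 in Col-0 and 0.87, 0.63 and 0.54 against 3.85, 3.29 and 5.56 in the mutant. AT1G32920 was among the 10 named members with the smallest mean change. It read 6.08, 5.10 and 5.05 in Col-0 KCl, 7.73, 7.43 and 7.66 in Col-0 KNO3, 5.85, 5.39 and 5.26 in mutant KCl and 7.69, 7.63 and 7.88 in mutant KNO3, and KCl number 1 was the highest KCl sample in both genotypes.

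AT5G54130 was measured by 2 probe sets, both of them members. Probe set 248191_at had group means of 3.23 and 5.76 in Col-0 and 3.01 and 5.89 in the mutant, under KCl and KNO3. Probe set 248190_at had group means of 1.62 and 4.21 in Col-0 and 1.82 and 4.54 in the mutant. Their changes were 2.53 and 2.6 in Col-0 and 2.88 and 2.71 in the mutant, which differ by less than the larger of their standard errors, 0.19 and 0.15.

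**Figure D3:**
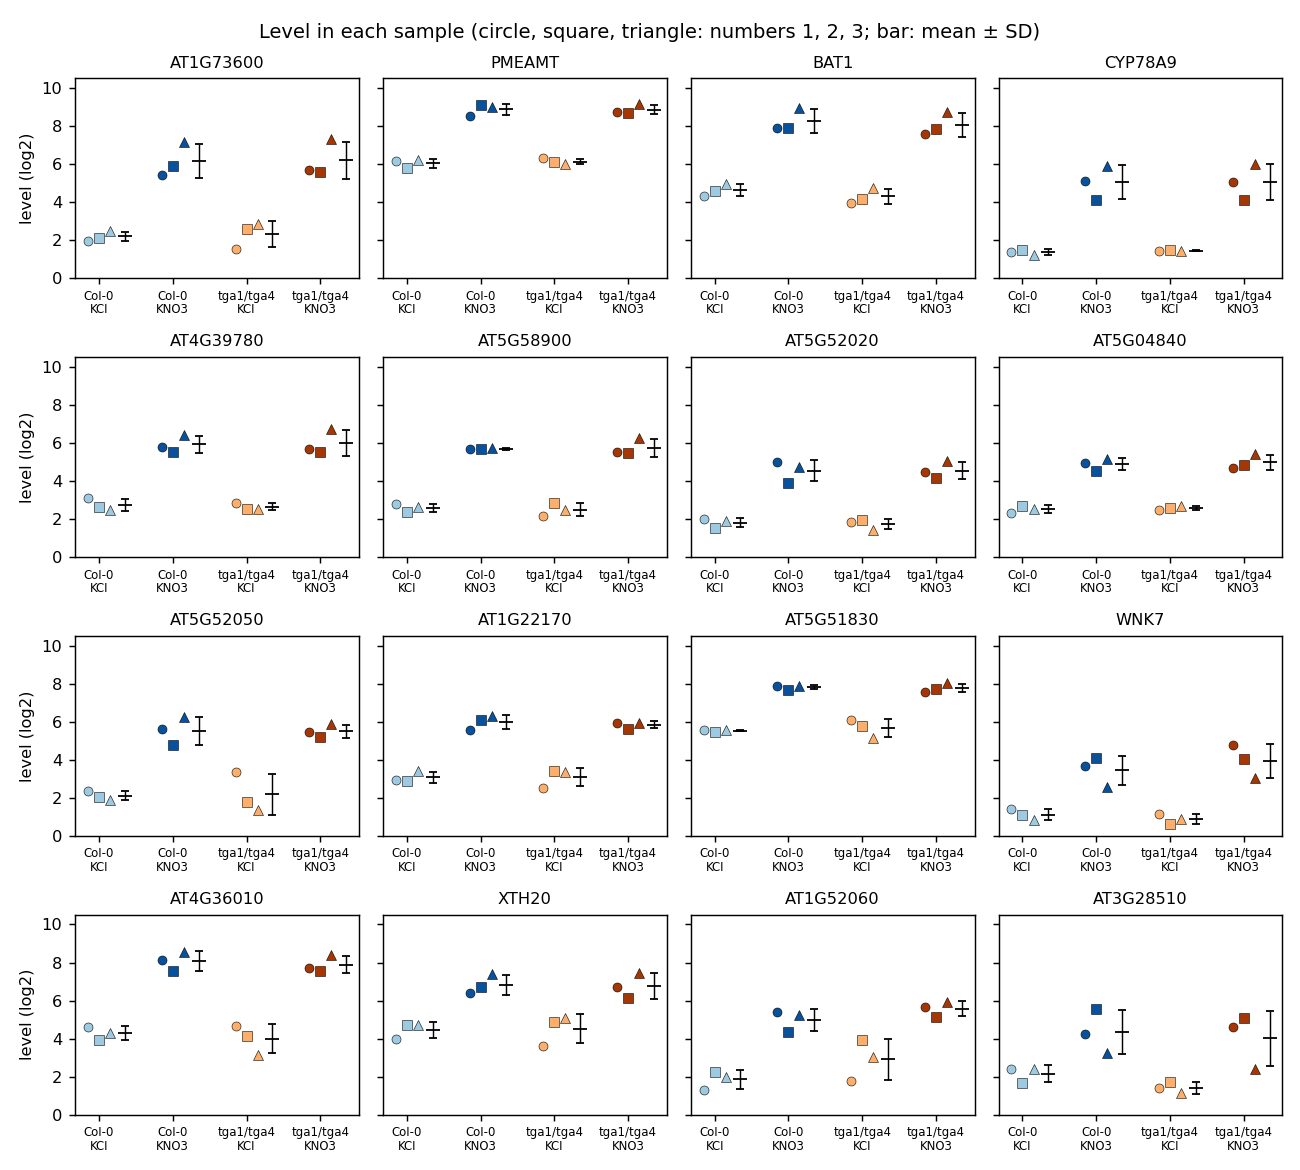
Level (log2) of 16 named members in each of the 12 samples, with circles, squares and triangles for samples numbered 1, 2 and 3 and a bar for the group mean ± SD (n = 3). In each panel the KNO3 samples lie above the KCl samples of the same genotype. Under KCl the mutant samples reach higher than those of Col-0 in AT1G52060 and lower in AT3G28510.

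A pair of members stood out by the spread of their samples. Probe set 248844_s_at, which reads the neighbouring lipid transfer protein genes AT5G46890 and AT5G46900, stood at 0.80, 4.17 and 4.87 in Col-0 KCl, 6.72, 5.53 and 8.15 in Col-0 KNO3, 1.43, 5.67 and 4.99 in mutant KCl and 6.63, 5.76 and 7.82 in mutant KNO3. KCl number 1 was far below the other KCl samples in both genotypes. AT3G28510, an AAA-type ATPase gene, stood at 2.39, 1.67 and 2.42 in Col-0 KCl, 4.24, 5.58 and 3.24 in Col-0 KNO3, 1.38, 1.72 and 1.12 in mutant KCl and 4.62, 5.08 and 2.38 in mutant KNO3. Here number 3 was the lowest KNO3 sample of both genotypes. Another AAA-type ATPase gene, AT4G25835, was less spread, at 0.94, 0.90 and 0.88 in Col-0 KCl, 3.53, 3.36 and 3.13 in Col-0 KNO3, 0.85, 0.70 and 1.09 in mutant KCl and 2.94, 4.02 and 3.41 in mutant KNO3. In the main fit AT3G28510 and 248844_s_at are the 2 members not called in Col-0, and 248844_s_at is also the 1 member not called in the mutant (limma).

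Members without a gene name included changes as large as those above. Probe set 251396_at read 7.05, 6.91 and 6.90 in Col-0 KCl, 10.56, 10.62 and 10.96 in Col-0 KNO3, 6.94, 6.75 and 7.17 in mutant KCl and 10.78, 10.51 and 10.78 in mutant KNO3. Its change of 3.76 in Col-0 and 3.74 in the mutant was the largest among members with all 6 KCl samples above 6. For 245977_at the change was 3.54 in Col-0 and 3.92 in the mutant. Probe set 260325_at had the smallest standard error of all members for this contrast, with changes of 3.32 ± 0.11 in Col-0 and 3.51 ± 0.11 in the mutant. The median standard error of the nitrate change was 0.25 over the members and 0.16 over all probe sets.

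Replicate numbers ordered many members alike in both genotypes. In Col-0 the KNO3 sample numbered 3 was the highest of its group in 70 members (57.4%, against 39.6% of all probe sets), and in the mutant in 69 (56.6%, against 40.1%). It was highest in both genotypes at once in 57 members (46.7%, against 22.1% of all probe sets). The KNO3 sample numbered 2 was the lowest in both genotypes in 47 members (38.5%, against 18.5%). CYP78A9, AT4G36010 and AT4G39780 are among those that show both. These shares describe the 12 arrays and were not tested.

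Samples that shared a salt and a number moved in the same direction. Across the 122 members, which are not independent of each other, the correlation of the deviations for numbers 1, 2 and 3 was 0.795, 0.468 and 0.522 under KCl, and 0.367, 0.703 and 0.877 with KNO3. Between salts of 1 genotype it ran from -0.333 to 0.252. Taken number by number, the median change of the members in Col-0 was 2.55, 2.47 and 2.7 for numbers 1, 2 and 3. In the mutant it was 2.63, 2.42 and 2.83. KNO3 exceeded KCl in 122 of 122 members at each number and in each genotype. That count follows from the full separation of the salts given above and adds nothing to it. Without the 4 samples numbered 3 the median change was 2.57 in Col-0 and 2.53 in the mutant, and 116 and 115 members were called, against 3.64% and 3.63% of all probe sets in either direction (limma).

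**Figure D4:**
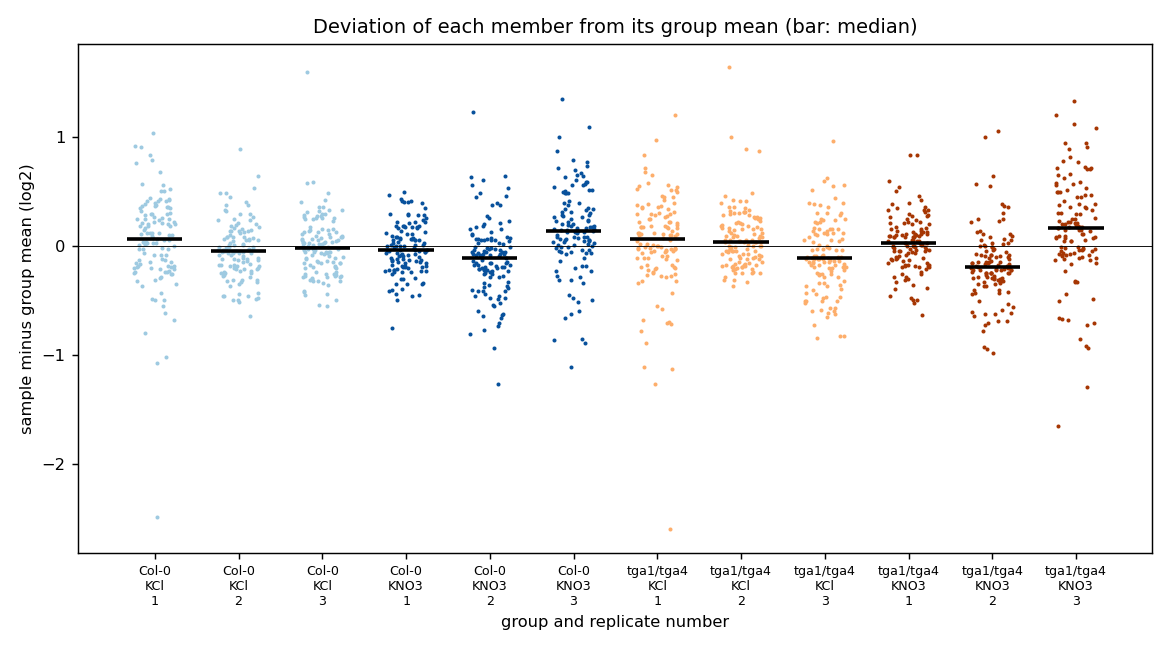
Deviation of each of the 122 members from its group mean (log2) in each of the 12 samples, named by group and replicate number, with a bar at the median. Medians lie between -0.195 and 0.167, lowest in mutant KNO3 number 2 and highest in mutant KNO3 number 3.

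The genotype comparison that the choice of members did not use is the average of tga1_tga4 minus Col-0 over both salts. By it, 0 of the 122 members were called, against 0.022% of all probe sets (limma, adjusted p under 0.05, all 5 of those lower in the mutant). At an unadjusted p under 0.05 there were 5 members (4.1%), against 3.45% of all probe sets. The differences had a median of 0.027 over the members and -0.005 over all probe sets (log2 difference). Among the members they ran from -0.54 in AT3G28510 to 0.83 in AT1G52060. The differences were above 0 in 68 members (55.7%, against 48.4% of all probe sets) and below 0 in 54.

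The 95% interval of the average genotype difference lay within 0.5 of 0 on the log2 scale in 60 members (49.2%, against 80.8% of all probe sets) and within 1 of 0, a 2-fold difference, in 112 (91.8%, against 98.6%). Its half-width had a median of 0.39 and reached 1.87 in 248844_s_at. These intervals come from the main fit, which has no replicate blocks and so leaves the likeness of same-numbered samples unused. For PMEAMT the difference was 0.04 with an interval from -0.24 to 0.33, and for AT5G58900 it was -0.02 with an interval from -0.37 to 0.33. For BAT1 it was -0.27, from -0.82 to 0.28, and for AT1G73600 0.08, from -0.72 to 0.88.

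The 5 members with an unadjusted p under 0.05 are AT1G52060, AT5G54130 by 248190_at, AT3G13560, 261927_at and 249920_at. AT1G52060 was higher in the mutant by 0.83 ± 0.33 (adjusted p = 1.0, limma, interval 0.09 to 1.56), from the values given above. Probe set 261927_at read 4.27, 3.05 and 3.14 in Col-0 KCl, 7.06, 6.81 and 6.82 in Col-0 KNO3, 5.17, 4.39 and 4.60 in mutant KCl and 7.38, 7.05 and 6.73 in mutant KNO3. All 3 mutant KCl samples lay above all 3 Col-0 KCl samples, while the KNO3 samples overlapped. Its average difference was 0.7 ± 0.22 (adjusted p = 1.0, limma, interval 0.22 to 1.17). The other 3 differed by 0.27, -0.44 and -0.5, in the order AT5G54130, AT3G13560 and 249920_at.

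Same-numbered samples of both genotypes pair within a salt, and the fit with salt by replicate number as a block also called 0 of 122 members for the average difference. In that paired fit the adjusted p of 261927_at was 0.0608 and that of AT1G52060 0.122, and over all probe sets the block called 10 in place of 5 (limma). For AT1G52060, AT5G54130 by 248190_at, AT3G13560, 261927_at and 249920_at its standard errors were 0.14, 0.12, 0.18, 0.1 and 0.11. Those of AT1G52060 and 261927_at were smaller than in the fit without the block. Intervals from the paired fit are not given here. Without the samples numbered 3, 0 members were called, against 0.0132% of all probe sets, and the median difference was 0.04.

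**Figure D5:**
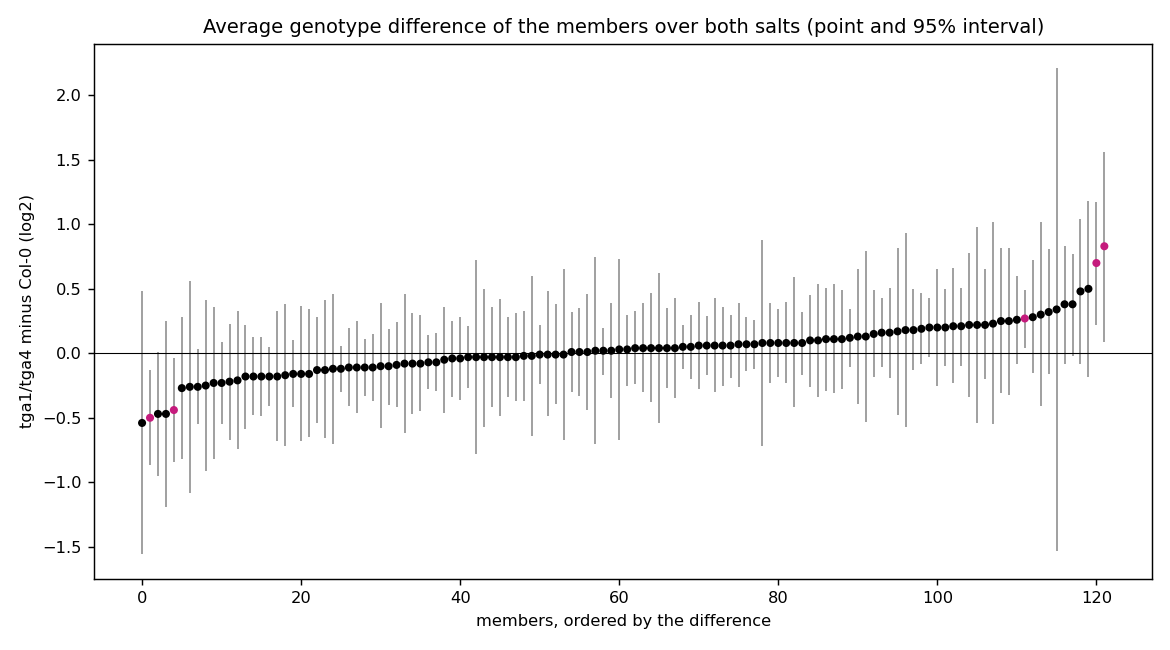
Average difference between tga1/tga4 and Col-0 over both salts (log2) for the 122 members, ordered by size. The 95% intervals are from the main fit to all 12 samples, without replicate blocks. The 5 coloured points have an unadjusted p under 0.05, and 0 pass after adjustment over all probe sets.

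The difference between the genotypes' nitrate changes rests on the changes that chose the members, and the window holds it within 2 of 0. It is given as a description. Of the 122 members, 0 were called for it, against 0.0044% of all probe sets, and 2 had an unadjusted p under 0.05 (1.64%, against 3.0% of all probe sets). The mutant change was the larger in 72 members (59.0%, against 51.6% of all probe sets) and the smaller in 50. In 111 members the difference was under 0.5 in size and in 121 under 1, against 94.6% and 99.7% of all probe sets. The median difference was 0.061 with the values as deposited, 0.009 after quantile normalization and -0.022 with each sample centred on its median, so its sign depends on the scaling. As a ratio, the mutant change was 1.03 times the Col-0 change at the median, with quartiles of 0.96 and 1.09.

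Members at the ends of that order differed by more. In 261927_at the mutant change was 2.33 and the Col-0 change 3.41, a difference of -1.08 ± 0.43 (interval -2.02 to -0.13), and it was the only member with a difference of at least 1 in size. WNK7 and AT3G13560 were at the other end, each with a difference of 0.76, with standard errors of 0.6 and 0.37. Probe sets 247591_at and 248844_s_at, without a single gene name, also had low values, at -0.88 ± 0.5 and -0.81 ± 1.71. Among members with a single gene name AT1G52050, AT1G52060 and AT1G61740 had the lowest values, at -0.53, -0.48 and -0.39. In AT3G13560 the Col-0 KCl samples read 3.00, 2.95 and 3.85 and the mutant KCl samples 2.66, 2.71 and 1.96, while the KNO3 samples read 5.55, 5.37 and 5.72 and 5.61, 5.19 and 5.66. Its genotypes were thus separated under KCl and overlapped under KNO3.

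Under each salt alone the genotype difference is likewise tied to the choice of members. Under KCl 0 members were called, against 0.0176% of all probe sets, and 5 had an unadjusted p under 0.05 (4.1%, against 4.7%). Under KNO3 0 were called, against 0.0132%, and 3 had an unadjusted p under 0.05 (2.46%, against 1.75%; limma). All 3 mutant samples lay above all 3 Col-0 samples in 3 members under KCl and 5 under KNO3, against 3.81% and 3.21% of all probe sets. They lay below in 4 and 0 members, against 5.34% and 3.57%. With salt by replicate number as a block, 1 member was called under KCl, 261927_at, at 1.24 ± 0.14 (adjusted p = 0.0167, limma, against 0.607 without the block).

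Few genes of the wider nitrate response had a named probe set. Of 6 measured nitrogen-response regulators 3 were called higher in each genotype, and the others, HHO5, HHO6 and NRG2, changed by 0.13, -0.4 and -0.09 in Col-0 and by 0.46, -0.1 and 0.17 in the mutant. The 3 called are HHO1, HHO2 and HHO3, GARP-type repressors of nitrate genes, at 3.18, 4.0 and 3.81 in Col-0 and 3.74, 3.84 and 3.84 in the mutant, whose probe sets the rule leaves out. Of 3 genes of the oxidative pentose phosphate pathway, which supplies NADPH, PGD1 and PGD3 were called higher in each genotype, at 2.69 and 4.28 in Col-0 and 2.82 and 4.3 in the mutant. PGD2 was called lower in each, at -0.43 and -0.51. CNX6, of molybdenum cofactor synthesis, was called higher in both genotypes at 1.43 and 1.48, while SIRB, of siroheme synthesis, changed by 0.07 and 0.0. The cytokinin response genes ARR15 and ARR16 and the isocitrate dehydrogenase gene cICDH were not called in either genotype. None of these genes was called for the average genotype difference, and none is a member. The probe set of PGD1 had changes inside the window but, like those of HHO1, HHO2 and HHO3, is left out by the rule.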

How the data were processed

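RNA of 12 root samples was labelled with the Affymetrix 3' IVT kit and read on 1 array each, per the labels. The deposited table holds 22810 probe sets, 64 of them controls that stayed out of all fits. The authors deposited log2 values. Their background correction, normalization and way of summarising probes are not given in the sources used here. That the base is 2 follows from the spiked controls: cre lay 6.24 above bioB, where their nominal ratio is 6.06 as log2 and 4.2 as natural log.

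Group means of all 22746 other probe sets were fitted with limma 3.58.1 in R 4.3.3 (moderated, no intensity trend, two-sided) and adjusted by Benjamini-Hochberg at 0.05. It was also run on simulated data whose samples were drawn independently. Such data lack the likeness of same-numbered samples, so that run cannot vouch for the precision reached here. Alternatives were replicate blocks, an intensity trend, array weights, other scalings, a filter on dim probe sets and leaving samples out. The number of arrays limits the precision, and no 2 samples held identical values. The members and lists were chosen with earlier results of these data known. Gene names come from the platform's gene table, updated through the TAIR10.1 gene list. No promoter or protein sequences were used here, so the planned motif count was not run. Named members follow a fixed rule: the ends of each order described, the fixed lists, and shared families. Not every member that the rule covers is printed. Members named for a role outside that rule were chosen after their values were seen.

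Same-numbered samples of both genotypes paired within a salt (correlations 0.276 to 0.726 over the brighter 50% of probe sets). Across salts the correlations were lower, from -0.136 to 0.229. The highest were those of number 3, at 0.225 in Col-0 and 0.229 in the mutant.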

Additional observations from a re-analysis of the deposited data

How the results depend on the processing

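The members were 122 with the values as deposited, 124 after quantile normalization, 129 with samples centred on their medians, 114 from group medians, 110 without all 4 samples numbered 3, an alternative chosen after seeing the data, and 112 to 129 with 1 sample left out. Of the 110, 102 were among the 122. Members called for nitrate ranged from 118 to 121 in Col-0 and from 118 to 121 in the mutant with 1 sample left out. The calls lost were those of single members with wide spread, and AT3G28510 lost its mutant call under 9 settings (adjusted p from 0.053 to 0.166, limma). In Col-0 AT3G28510 gained a call under 6 settings and 248844_s_at under 1. Among the brighter 50% of probe sets 116 members remained, and 115 were called in each genotype. For the average genotype difference, the interaction and both genotype differences within a salt, 0 members were called with any 1 sample left out (0 to 0 for each). With the replicate block of salt by number, 0 were called for the average difference and the interaction and 1 for the difference under KCl. With number as 3 blocks, 122 and 121 members were called for nitrate and 0 for the other contrasts. Of all 22746 probe sets, that block called 1663 for nitrate in Col-0 and 1581 in the mutant. Over all probe sets the Col-0 nitrate calls numbered 1253, or 815 without Col-0 KNO3 replicate 1 and 829 without the samples numbered 3. The mutant calls numbered 1165, or 720 without tga1_tga4 KNO3 replicate 1 and 1822 with array quality weights. For the average genotype difference, 5 were called, 10 with the salt by number block, 9 with array quality weights and 3 without the samples numbered 3. Under KCl, 4 were called, 18 with that block, 18 without tga1_tga4 KCl replicate 1, 2 without Col-0 KCl replicate 2 or tga1_tga4 KCl replicate 3 and 1 without the samples numbered 3. For the interaction, 1 was called, and 0 to 2 with 1 sample left out. The cause of these shifts was not tested. The planned count of promoter motifs was not run. Signal over background was not used here, so changes of members dim under KCl are uncertain in size.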
